A study of Mus musculus with 4 samples.

Results

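Cytosolic ribosomal protein genes encode the protein parts of the ribosome that works outside mitochondria. They were taken as the protein-coding mouse genes whose symbol begins with Rpl or Rps and a digit, together with Rpsa, Rplp0, Rplp1 and Rplp2, and without the Rps6k kinases and symbols carrying -ps. The rule gave 86 of 31053 gene identifiers, of which 52 belonged to the large and 33 to the small subunit. The remaining one was Rps19bp1, whose product binds RPS19 and is not a structural part of the ribosome, and 8 of the others were paralogues of another ribosomal protein gene (Rpl3l, Rpl7l1, Rpl10l, Rpl22l1, Rpl36al, Rpl39l, Rps27l and Rps27rt). The rule used names alone and no measured value. Transcripts were sequenced at their 3′ end in sorted crypt cells of the mouse small intestine, with 5 Ret-EGFP+ and 5 non-EGFP libraries of 1000 cells each, and in small intestinal organoids, with 6 control and 6 GDNF libraries. Sorted cells of either gate came from adult RetEGFP/+ knock-in mice, in which EGFP is expressed from 1 Ret allele, so that fluorescence follows the Ret promoter, and the cells of both gates carry this allele (the labels list the sorted pools as wild type). Organoids were grown from crypts of adult wild-type C57BL/6J mice for 4 days in ENR medium (EGF, NOGGIN, R-SPONDIN 1), either plain (control) or with GDNF and its co-receptor GFRA1 at 500 ng/mL, in 3 experiments of 1 mouse each (2 females and 1 male). The sorted cells came from 3 male mice, and the sample sheet did not tie libraries to mice, so n counts libraries throughout and the p values may be too small.

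A ribosome is built from a small subunit, which reads the mRNA, and a large subunit, which joins amino acids, and each holds a core of ribosomal RNA with one copy of most of its proteins. The genes of these proteins are scattered over the genome but are made and used in step, and cells that grow and divide, such as the progenitors of the intestinal crypt, make many ribosomes. In vertebrates their mRNAs usually begin with a C followed by a run of pyrimidines (a 5′ TOP tract), through which the kinase mTORC1 and the protein LARP1 set their translation and stability. Most of these genes also have processed pseudogene copies elsewhere in the genome, which matters for short reads from the 3′ end.

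Stretches around the annotated start of 8 of the genes show this tract and its absence (RefSeq, GRCm38.p6, 10 bases before and 20 bases from the start, tract in capitals). Rplp2, Rpl35, Rpl35a and Rps6 are shown as members with a tract, Rps27 with its paralogue Rps27rt for the sequence they share, and Rplp0 and Rps19 because they had the largest differences in sorted cells and no tract within 5 bases of the annotated start.
Rplp2 (chr7:141447641-141447670, + strand): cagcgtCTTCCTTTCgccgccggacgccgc
Rpl35 (chr2:39005112-39005141, - strand): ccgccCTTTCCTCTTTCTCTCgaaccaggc
Rpl35a (chr16:33056472-33056501, + strand): gcttgCCTTCCTCTTTCCgccatcttggcg
Rps6 (chr4:86857348-86857377, - strand): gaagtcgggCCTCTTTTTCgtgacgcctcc
Rps27 (chr3:90213629-90213658, - strand): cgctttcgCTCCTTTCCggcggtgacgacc
Rps27rt (chr9:114982720-114982749, - strand): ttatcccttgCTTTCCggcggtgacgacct
Rplp0 (chr5:115559457-115559486, + strand): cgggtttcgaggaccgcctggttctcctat
Rps19 (chr7:24884582-24884611, + strand): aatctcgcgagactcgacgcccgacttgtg

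A tract was counted where a C stood within 5 bases of the annotated start, on the strand of the gene, and was followed by at least 4 pyrimidines. Of the 86 genes 66 had a start in the table used, and 30 of these (45.5%) held a tract. The share was 24.6% (17 of 69) among mitochondrial ribosomal proteins and 21.8% (3598 of 16508) over all protein-coding symbols of the tables with a start. Where a gene had more than 1 start there, 1 start with a tract was enough, and such a start was the one printed. A match describes the letters at 1 annotated start and does not show how the mRNA begins in these cells.

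Depth ranged from 1113006 to 4717549 counts in the sorted libraries and from 1042028 to 2010359 in the organoids. Levels are given as CPM, the count relative to the library size after scaling with the TMM factor of edgeR. These factors were 1.13 to 1.29 for Ret-EGFP+, 0.709 to 0.902 for non-EGFP and 0.94 to 1.09 for organoid libraries. General enteroendocrine markers (Chga, Chgb, Neurod1, Pax6, Isl1, Scg2 and Cpe) were called higher in Ret-EGFP+ cells in 7 of 7 cases, with a summed level of 19868 to 27512 CPM against 1023 to 3450 CPM. Goblet cell markers were lower in 6 of 6 cases, and tuft cell markers in 5 of 5. Stem cell markers were lower in 5 of 5 cases, with a summed level of 17.4 to 61.7 CPM against 374 to 700 CPM. Enterocyte markers were mixed, lower in 5 and higher in 2 of 7 cases. Paneth cell markers, lower in 6 of 6 cases too, summed to 2929 to 7205 CPM against 172840 to 440149 CPM, and proliferation markers (Mki67, Top2a, Pcna, Mcm2, Mcm5, Cdk1 and Ccnb1), lower in 7 of 7 cases, summed to 12.2 to 26 CPM against 323 to 448 CPM. The 5 stroma markers (Col1a1, Col1a2, Col3a1, Dcn and Vim) summed to 27.1 to 115 CPM in Ret-EGFP+ against 7.35 to 65.5 CPM in non-EGFP libraries. Nearly all of this was Vim, the 1 of the 5 that was tested, which was called higher, while Col1a1, Col3a1 and Dcn were at 0 counts and Col1a2 had 1 in the 10 sorted libraries. Makeup of the cells, proliferation and the ribosomal protein genes thus moved together between the gates, and the part of the former in the latter was not tested.

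Ribosomal protein mRNAs were lower in Ret-EGFP+ cells than in the other gate. Of the 86 genes 83 passed the filter on low counts, 70 were called lower and 0 higher (edgeR, adjusted p under 0.1), with a median log2 fold change of -1.41. Over all 13672 genes tested, 21.4% were called lower and 21.5% higher, with a median log2 fold change of 0.11. In 67 of the 83 genes every Ret-EGFP+ library lay below every non-EGFP library, as in 12.2% of all genes. Because abundant genes are called more often, the 54 members with a mean of at least 100 counts were also set against all genes of that depth: 54 of 54 were lower, against 45.5% of such genes. Of those called, 65 had a log2 fold change below -1 and 8 below -2, cut-offs that were not counted over all genes. By gene, 30 of 33 small subunit genes were lower (median -1.57) and 39 of 49 large subunit genes tested (median -1.23), along with Rps19bp1. In bulk libraries a smaller number of cells with the transcripts and less RNA per cell cannot be told apart.

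**Figure D1:**
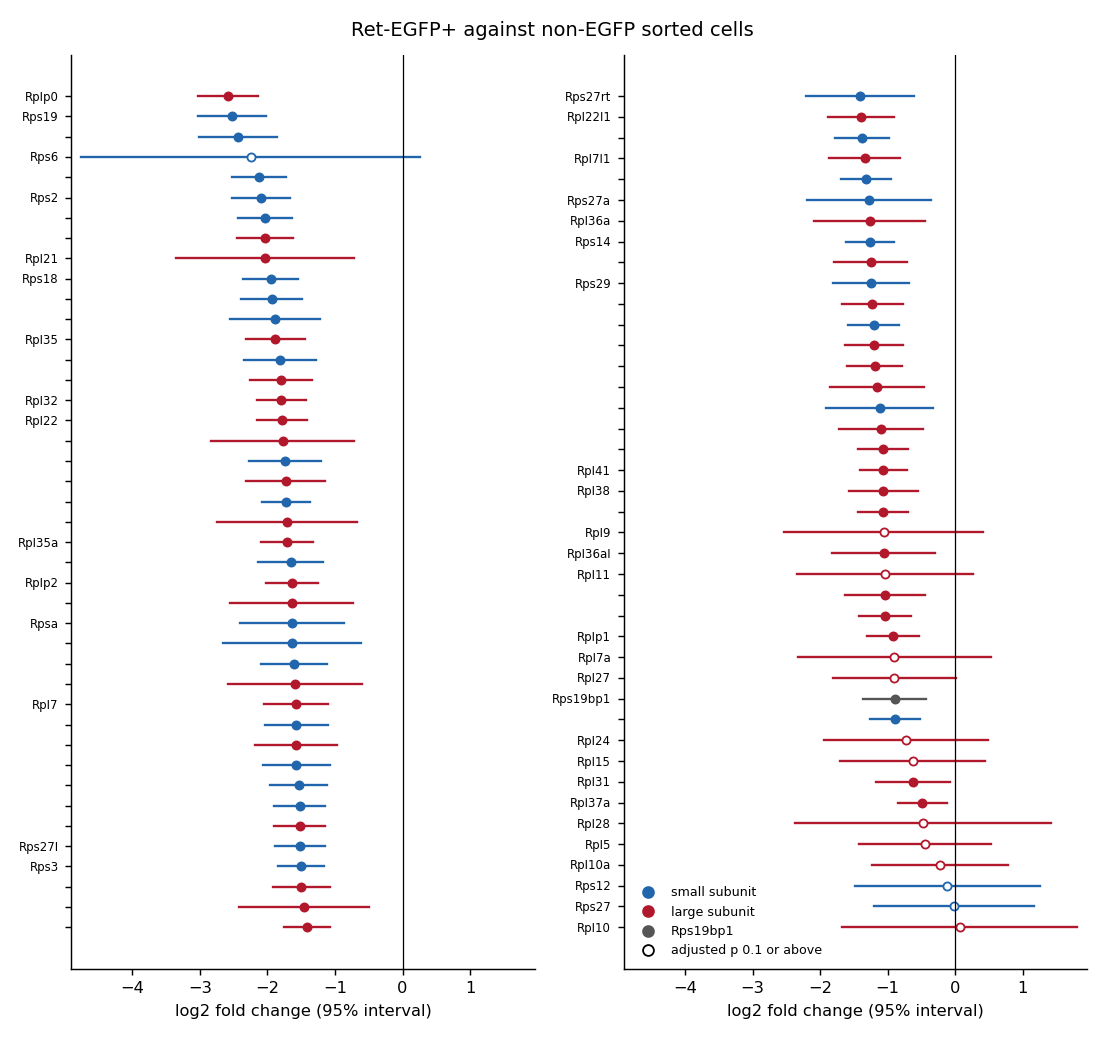
Log2 fold change of the 83 tested ribosomal protein genes, Ret-EGFP+ (n = 5 libraries) against non-EGFP sorted cells (n = 5), in order of size; points are edgeR estimates, lines their 95% intervals and open points genes with an adjusted p of 0.1 or above, with names for genes described in the text. 82 of the 83 estimates lie below 0, and the 13 open points have intervals that include 0.

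The share of all counts taken by the 86 genes was 1.51, 1.27, 1.32, 1.39 and 1.4% in Ret-EGFP+ libraries 1 to 5 and 2.92, 2.72, 2.09, 2.08 and 3.78% in non-EGFP libraries 1 to 5. The groups did not overlap, and the mean share was 1.97 times higher in non-EGFP cells (2.72% ± 0.70 against 1.38% ± 0.09, SD, n = 5 each). Non-EGFP library 5 had the highest share, and libraries 3 and 4 of that gate the lowest. Small subunit genes took on average 1.4% of non-EGFP against 0.66% of Ret-EGFP+ counts, and large subunit genes 1.31% against 0.71%. Defensin genes of Paneth cells alone took 16.3% to 36.1% of the counts of non-EGFP libraries and 0.41% to 0.91% of those of Ret-EGFP+ libraries. With these genes left out of the total the share of the ribosomal protein genes was 3.66% against 1.39%, a ratio of 2.64. This takes far more from the total of non-EGFP than of Ret-EGFP+ libraries. With the 10 most abundant other genes of each library left out instead, the share was 4.25% against 2.11%, a ratio of 2.01. Within plates, which the sample sheet gives as 2 to 4, the ratio was 1.94 on plate 2 and 2.69 on plate 4, with 1 library of each gate, and 1.73 on plate 3, with 3 of each. Counted by gene, 81, 79 and 82 of the 83 genes were lower in Ret-EGFP+ cells on plates 2, 3 and 4. The genes share these libraries, 1 per gate on plates 2 and 4, and the same count over all genes was not made.

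**Figure D2:**
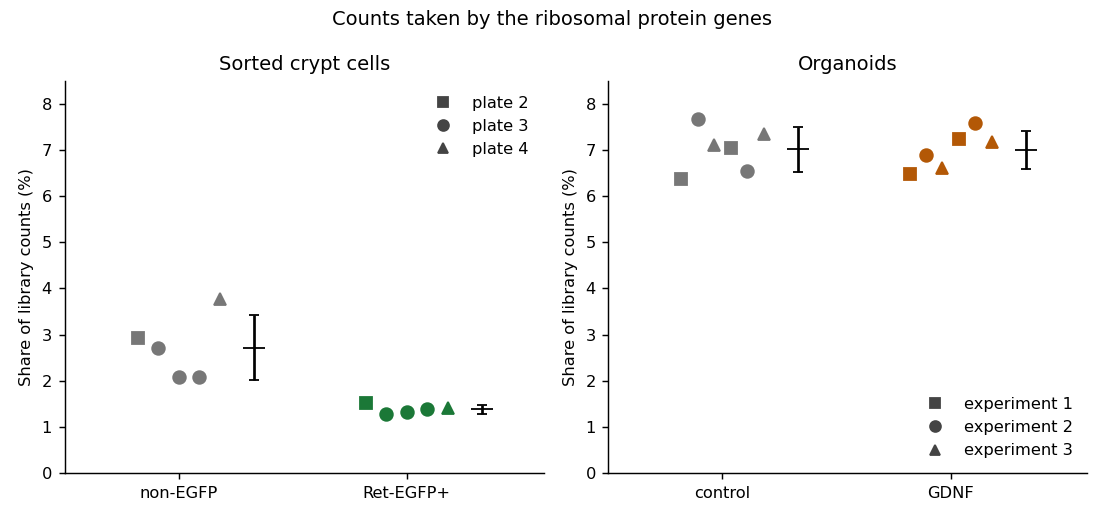
Share of library counts (%) taken by the 86 ribosomal protein genes, one point per library, with the mean and SD of each group beside the points; marker shapes give the plate of sorted cells or the organoid experiment. Ret-EGFP+ libraries sit between 1.27% and 1.51%, below the 2.08% to 3.78% of non-EGFP libraries, while control and GDNF organoids overlap between 6.37% and 7.68%.

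Proteins of the stalk of the large subunit, which draws elongation factors to the ribosome, included the gene with the largest fall. Rplp0 (ENSMUSG00000067274, chromosome 5, 115559467 to 115563727, GRCm38), the base of the stalk, stood at 282, 193, 191, 269.7 and 257 CPM in Ret-EGFP+ libraries 1 to 5 and at 1802, 1534, 852, 1214 and 1725 CPM in non-EGFP libraries 1 to 5. All 5 Ret-EGFP+ values lay below the lowest non-EGFP value, and the gene fell 5.98-fold (log2 fold change -2.58, SE 0.21, adjusted p = 5.79e-10). Rplp2, one of the acidic proteins bound to it, had 309, 241, 286, 330.4 and 361 CPM against 968, 899, 823, 801 and 1277 CPM in the same order. It fell 3.12-fold without overlap (log2 fold change -1.64, SE 0.19, adjusted p = 1.29e-07). Rplp1, the partner of Rplp2 in the stalk, had 389, 333, 429, 506 and 454 CPM in Ret-EGFP+ and 808, 815, 692, 597 and 1074 CPM in non-EGFP libraries. Its groups were also apart but the fall was smaller (log2 fold change -0.92, SE 0.19, adjusted p = 0.000449). With library size set by total counts alone Rplp1 was no longer called (log2 fold change -0.38, adjusted p = 0.147).

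Small subunit genes were among those with the smallest adjusted p. Rps19, which is needed for small subunit maturation and is mutated in Diamond-Blackfan anaemia in humans, had 247, 169.7, 174, 188 and 295 CPM in Ret-EGFP+ libraries 1 to 5 and 1366, 1035, 909, 818 and 2062 CPM in non-EGFP libraries 1 to 5. The highest non-EGFP value was that of library 5, and the lowest still exceeded every Ret-EGFP+ value (log2 fold change -2.53, SE 0.24, adjusted p = 7.67e-09). Rps2, which lines the channel where mRNA enters, had 44, 37.4, 47.4, 41.8 and 44.4 CPM against 212, 162, 181, 156 and 213 CPM. Its 5 values in each gate were close to each other and far apart between gates (log2 fold change -2.10, SE 0.21, adjusted p = 1.47e-08). Rpl32, the large subunit gene with the smallest adjusted p beside Rplp0, had 546, 394, 466, 492 and 502 CPM against 1679.7, 1588, 1564, 1406 and 2079 CPM. It fell 3.46-fold, again without overlap (log2 fold change -1.79, SE 0.18, adjusted p = 1.07e-08). Rps18 (log2 fold change -1.95) also stood near -2, as did Rpl21 (log2 fold change -2.04, SE 0.64, adjusted p = 0.0165), on 193 counts in all sorted libraries.

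Rps14, Rps3 and Rpl41, which were among the genes with most counts, were lower by less than these. Rps14, a small subunit protein of the platform, was the most abundant, at 1257, 905, 1138, 1366 and 1161 CPM in Ret-EGFP+ libraries 1 to 5 and 2788, 2786, 2474, 2415 and 3479 CPM in non-EGFP libraries 1 to 5. It fell 2.39-fold (log2 fold change -1.26, SE 0.17, adjusted p = 2.8e-06), and its part of the summed CPM of all 86 genes was 10.3% in the former and 8.55% in the latter gate. Rps3, which lies at the mRNA entry and also takes part in DNA repair, had 641, 635, 632, 615 and 701 CPM against 1752, 1923, 1776, 1472 and 2219 CPM. No Ret-EGFP+ value reached the lowest non-EGFP one (log2 fold change -1.50, SE 0.17, adjusted p = 1.06e-07). Rpl41, the shortest ribosomal protein, had 790.5, 688, 704, 803 and 836 CPM against 1508, 1693, 1353, 1451 and 1990.4 CPM and fell 2.09-fold (log2 fold change -1.07, SE 0.17, adjusted p = 2.11e-05). The 10 highest genes took 49.1% of the summed CPM in Ret-EGFP+ libraries and 51.3% in the others, and 8 of the 10 were shared. The order of the 83 levels was nearly the same in the gates (Spearman's rho over genes 0.98, which also reflects the length and 3′ sequence that a gene keeps in every library). The smallest fall among called genes was that of Rpl37a (log2 fold change -0.49, SE 0.18, adjusted p = 0.0345), followed by Rpl31 (log2 fold change -0.62, adjusted p = 0.073). Falls as small as these depend on the scaling, since the median of all genes was 0.11 with TMM and 0.66 with total counts alone.

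Rpsa, Rps27a and Rps19bp1 are given for the roles of their products beside the ribosome. Rpsa, a small subunit protein also described as a laminin receptor, had 7.12, 8.02, 11, 7.07 and 10.7 CPM in Ret-EGFP+ libraries 1 to 5 and 22.5, 24, 28.2, 33 and 30.8 CPM in non-EGFP libraries 1 to 5, on 455 counts in all (log2 fold change -1.64, SE 0.38, adjusted p = 0.00137). Rps27a, which encodes ubiquitin fused to a small subunit protein, had 6.1, 4.68, 8.15, 12.4 and 13.1 CPM against 16.4, 19.7, 17.6, 14.8 and 39.6 CPM. Groups were apart, but non-EGFP library 5 was far above the other 4 (log2 fold change -1.28, SE 0.45, adjusted p = 0.0289), and without that library the call was lost (adjusted p = 0.152). Rps19bp1, which also binds the deacetylase SIRT1, had 65.1, 86.9, 85.3, 75.4 and 112 CPM against 129, 162, 148, 117 and 232 CPM. It fell 1.86-fold (log2 fold change -0.89, SE 0.23, adjusted p = 0.00341). On total counts alone neither Rps27a (adjusted p = 0.19) nor Rps19bp1 (adjusted p = 0.247) was called. Of the ribosomal proteins whose symbols the rule does not cover, Fau, a ubiquitin-like protein fused to a small subunit protein (log2 fold change -1.56, adjusted p = 6.59e-05), and Rack1, a scaffold on the head of the small subunit (-1.24, adjusted p = 2.93e-05), were lower too.

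Of the 8 paralogues 5 were tested, and each was lower together with its partner or alone. Rps27l, which is induced by p53, had 353, 376, 389, 337 and 375 CPM in Ret-EGFP+ libraries 1 to 5 and 820.0, 1178, 999, 910.3 and 1337 CPM in non-EGFP libraries 1 to 5 (log2 fold change -1.52, SE 0.18, adjusted p = 2.25e-07). Rps27, its partner, had 10.8, 6.68, 4.31, 8.83 and 11.5 CPM against 7.99, 5.46, 2.94, 6.82 and 18.9 CPM and overlapped (log2 fold change -0.02, SE 0.57, adjusted p = 0.987). Rps27rt, a retrogene copy of Rps27, had 8.81, 8.02, 9.58, 7.07 and 14 CPM against 24.9, 22.6, 18.2, 25 and 36.5 CPM (log2 fold change -1.41, SE 0.39, adjusted p = 0.00682). No window of the 3′ end of Rps27 and 12.1% of those of Rps27rt were found in no other gene, so how counts were divided between these copies is uncertain. Rpl22l1 (ENSMUSG00000039221, chromosome 3, 28805436 to 28807424), whose product can take the place of RPL22, had 35.9, 31.4, 37.9, 45.3 and 45.2 CPM against 101.2, 112, 80.0, 86.4 and 134 CPM. It fell by 1.39 and Rpl22, with 125, 117, 114, 132 and 148 CPM against 427, 475, 385, 406 and 502 CPM, by 1.79 on the log2 scale (log2 fold change -1.79, SE 0.18, adjusted p = 2.03e-08). Within a library, where scaling cancels, the mean log2 ratio of Rpl22l1 to Rpl22 counts (0.5 added to each) was -1.70 ± 0.15 in Ret-EGFP+ libraries and -2.11 ± 0.14 in the others (SD, n = 5 each). The difference of 0.41 had p = 0.00794 in a two-sided exact permutation test, the smallest p that 252 splits allow, and adjusted p = 0.0529 over 10 ratios (5 pairs in sorted cells and in organoids). The ratios of Rps27l and Rps27rt to Rps27 differed by -1.67 and -1.57 (each p = 0.0159 and adjusted p = 0.0529 in the same exact permutation test), on the few counts of Rps27. With libraries exchanged within plates alone each of these 3 differences had p = 0.025, the smallest that the 80 splits of this exact permutation test allow, and adjusted p = 0.0833. These ratios were added after the values had been seen, and 38.3% of the 3′ windows of Rpl22l1 were unique to it.

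Rpl7l1 and Rpl36al are the other tested paralogues. Rpl7l1, which takes part in large subunit assembly, had 31.2, 28.7, 30.7, 25.3 and 24.6 CPM in Ret-EGFP+ libraries 1 to 5 and 79.9, 58.2, 60.0, 75 and 83.1 CPM in non-EGFP libraries 1 to 5 (log2 fold change -1.34, SE 0.25, adjusted p = 0.000172), and Rpl7 had 56.9, 40.1, 50.3, 43.6 and 63.2 CPM against 146, 148, 156, 107 and 203 CPM (log2 fold change -1.58, SE 0.23, adjusted p = 5.16e-06). Neither pair overlapped between gates. Rpl36al, which differs little from Rpl36a in protein, had 14.2, 16, 13.4, 11.2 and 17 CPM against 35.2, 27.7, 22.9, 13.6 and 48.3 CPM, with overlap (log2 fold change -1.06, SE 0.37, adjusted p = 0.0292). Rpl36a had 14.6, 6.68, 8.15, 13 and 20.8 CPM against 26.5, 30.2, 24.1, 17 and 55.1 CPM and overlapped too (log2 fold change -1.27, SE 0.40, adjusted p = 0.0165). Neither was called on total counts alone, and without non-EGFP library 5 Rpl36al was not called either (adjusted p = 0.127). The log2 ratios of paralogue to partner differed by 0.24 for Rpl7l1 (p = 0.294) and 0.34 for Rpl36al (p = 0.317, two-sided exact permutation tests). Rpl3l and Rpl10l, known from muscle and testis, were at 0 counts in all libraries of either kind. Rpl39l, also a testis gene, had 0 counts in sorted cells and 3 in organoids, all in control libraries. A count of 0 allows up to 0.252 CPM over the Ret-EGFP+ and 0.229 CPM over the non-EGFP libraries, and 0.357 and 0.303 CPM over control and GDNF organoids (3 counts over the group's TMM-scaled library sizes, counting error only).

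The 13 tested genes that were not called lay toward the low end of counts. They were Rps6, Rpl9, Rpl11, Rpl7a, Rpl27, Rpl24, Rpl15, Rpl28, Rpl5, Rpl10a, Rps12, Rps27 and Rpl10, with 41 to 543 counts over the 10 libraries (median 182), against 193 to 52163 (median 3348) for the called genes. Each of their 95% intervals included both 0 and a log2 fold change of -1. Counts of called and uncalled genes overlapped: Rpl21 was called on 193, whereas Rpl27 (log2 fold change -0.90, 543 counts), Rpl5 and Rpl15 (log2 fold change -0.63, 311 counts) were not, with smaller estimates. The intervals of Rps27 (lower bound -1.20) and Rpl10a (lower bound -1.23) did not reach the median of all members, -1.41. Rps6, the substrate of the S6 kinases, had the lowest depth (log2 fold change -2.25, SE 1.22, adjusted p = 0.157). Rpl5 and Rpl11, which hold MDM2 when ribosome assembly fails, had log2 fold changes of -0.45 and -1.04 (adjusted p = 0.501 and 0.212). Rpl10, which joins the large subunit late in its assembly, was the single gene with an estimate above 0, at 8.47, 4.01, 0.96, 3.53 and 5.2 CPM in Ret-EGFP+ and 9.4, 1.09, 2.94, 0 and 6.78 CPM in non-EGFP libraries 1 to 5 (log2 fold change 0.07, SE 0.84, adjusted p = 0.961). Its values overlapped throughout, and leaving out 1 library moved the estimate between -0.30 and 0.65.

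Depth followed in part how much of a gene's 3′ end is its own. For each gene all windows of 61 bases, close to the read length, in the last 300 bases of its main transcript were looked up in all annotated transcripts. At least 90% of the windows were unique to 31 genes and under 50% to 41 genes, and in 4 genes (Rpl9, Rpl10, Rpl36a and Rps27) no window was. Among mitochondrial ribosomal proteins 73 of 78 genes had at least 90% unique windows. Across the 83 genes Spearman's rho of the unique share with counts was 0.35 in sorted cells and 0.36 in organoids, and with the sorted log2 fold change -0.14, given as descriptions over genes that share libraries. Depth did not rise steadily: median sorted counts were 1190 for genes with under 50% unique windows, 11901 for 50% to 90% and 3037.5 for at least 90%. Of the genes with at least 90% unique windows, 25 of 28 tested were lower (median -1.48), of those with 50% to 90% 14 of 14 (median -1.64) and of those with under 50% 31 of 41 (median -1.27). The fall was therefore also present where at least 90% of the 3′ windows are unique. Exceptions in depth existed on either side: Rpl35, with 4.17% unique windows, had 9202 counts, while Rpl28 and Rpl11, with 100%, had 68 and 168. Of the entries with -ps symbols that the rule left out, Rpl10-ps3 held 641 counts in sorted cells, more than the 130 of Rpl10. How reads that fit several places were counted is not given in the sources used here. Levels between ribosomal protein genes are thus no measure of how many mRNAs each has.

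**Figure D3:**
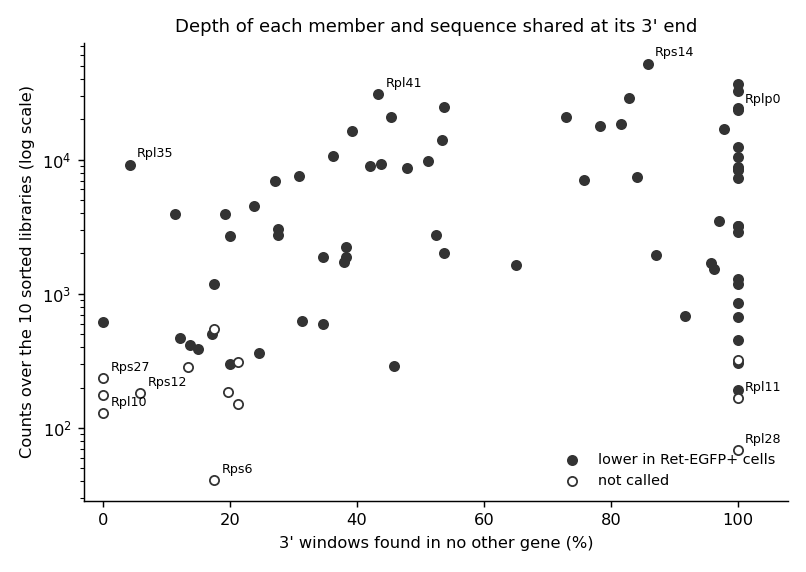
Counts summed over the 10 sorted libraries (log scale) against the share of 61-base windows at the 3′ end found in no other annotated gene (%), for the 83 tested ribosomal protein genes; filled points are genes called lower in Ret-EGFP+ cells. The 13 open points all lie at or below 543 counts, and Rps14 is highest with 52163.

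The falls were described with and without a tract at the annotated start. With a tract 25 of 30 tested genes were lower (median log2 fold change -1.49), and without 25 of 33 (median -1.21). Ranges of the estimates overlapped, from -2.25 to -0.02 with a tract and from -2.58 to 0.07 without. The stretches printed above include Rplp0 and Rps19, the largest falls, among those without one, and Rps6 (-2.25) and Rps27 (-0.02) among those with one. Other genes known for 5′ TOP mRNAs, with 3 ribosomal proteins outside the symbol rule among them, fell in 13 of 20 cases and rose in 1 (median -1.03), against 7 and 4 on total counts alone. Without those 3 genes 10 of 17 fell and 1 rose (median -0.995), beside the 21.4% and 21.5% of all genes, and 4 and 4 on total counts alone. Pabpc1, the poly(A)-binding protein, was lower (log2 fold change -1.57, adjusted p = 1.07e-06), while Eef1a1 (0.08, adjusted p = 0.756) and Eef2 (0.13, adjusted p = 0.666), the main elongation factors, were not called. The one that rose was Vim (log2 fold change 1.36, adjusted p = 0.0178), which encodes an intermediate filament.

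Genes that make ribosomes and run translation were described by the same test, to be read against the 21.4% lower and 21.5% higher of all genes with TMM and the 13.4% lower and 34.3% higher with total counts alone. Ribosomal proteins of mitochondria were lower in 66 of 77 cases and higher in 0, with a median of -1.08 (36 lower and 1 higher with total counts alone). Mrpl12, at 330.4 ± 112 CPM in non-EGFP and 60.3 ± 12.9 CPM in Ret-EGFP+ cells (mean ± SD, n = 5 each), led them (log2 fold change -2.45, adjusted p = 7.13e-09), before Mrps14, Mrpl42 and Mrpl18. Their summed share of counts was 1.33% against 0.89%, a ratio of 1.49 beside the 1.97 of the cytosolic set. Ribosome assembly genes were lower in 27 of 52 cases and higher in 0 (median -0.98; 14 lower and 2 higher on total counts alone), among them Nhp2 (log2 fold change -2.52, adjusted p = 1.13e-07) and Gar1 (-2.59, adjusted p = 8.78e-07), which guide the modification of ribosomal RNA, the nucleolar GTPase Gnl3 (-2.13, adjusted p = 9.38e-07) and Nop16 (-1.93, adjusted p = 6.61e-06). Eif6, which keeps the subunits apart, was abundant and not called (log2 fold change -0.14, adjusted p = 0.64). RNA polymerase I genes fell in 4 of 11 cases (36.4%), and in 2 on total counts alone, which is near the share of all genes, with Taf1d (-1.92, adjusted p = 1.55e-05), Polr1d (-0.77, adjusted p = 0.022), Polr1b (-2.66, adjusted p = 0.0227) and Rrn3 (-1.34, adjusted p = 0.0973), while the activator Ubtf was not called (-0.04).

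Translation factors moved less evenly. Initiation genes were lower in 20 and higher in 4 of 51 cases (median -0.43), but with total counts alone 8 were lower and 13 higher, so their direction as a group depended on the scaling. Eif3i and Eif1ax, parts of the initiation machinery, were lower (log2 fold change -1.33, adjusted p = 3.61e-05 and -1.24, adjusted p = 5.57e-05), and Eif4ebp1, which holds back the cap-binding protein and is itself a target of mTORC1, was too (-1.75, adjusted p = 2.89e-05). Eif4e3, a relative of the cap-binding protein, was higher (3.69, adjusted p = 1.81e-09), and the abundant Eif5 and Eif3c were not called (-0.05 and -0.13). Elongation genes fell in 5 of 9 cases (median -1.01), with Eef1b2, the exchange factor of eEF1A (-1.52, adjusted p = 2.57e-06), and Eif5a (-1.36, adjusted p = 2.96e-05), and 2 fell and 2 rose on total counts alone. Regulators of growth, including mTORC1 parts, S6 kinases and MYC genes, were higher in 5 and lower in 4 of 32 cases (median 0.39). With TMM both lay below the 21.5% and 21.4% of all genes. On total counts alone 14 were higher, above the 34.3% of all genes, and 1 was lower, below the 13.4%. Eif4ebp1, given above, is in this list as well and was among the 4 lower. Among the growth regulators Cdkn1a, the p21 inhibitor of the cell cycle, was higher (log2 fold change 2.40, adjusted p = 1.73e-10), as were Tsc1, which restrains mTORC1 (2.38, adjusted p = 0.000317), and Rps6ka3 (1.59, adjusted p = 0.00231). Myc had 66 counts in all sorted libraries and was not called (log2 fold change -2.07, adjusted p = 0.129). Ribosome quality control genes were lower in 2 and higher in 1 of 10 cases (3 higher on total counts alone), no more than the share of all genes: Map3k20, a sensor of stalled ribosomes (-4.37, adjusted p = 0.000177), and Abce1, which splits used ribosomes (-1.70, adjusted p = 0.00596), fell, and Usp9x, a deubiquitinase, rose (2.53, adjusted p = 0.00803).

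**Figure D4:**
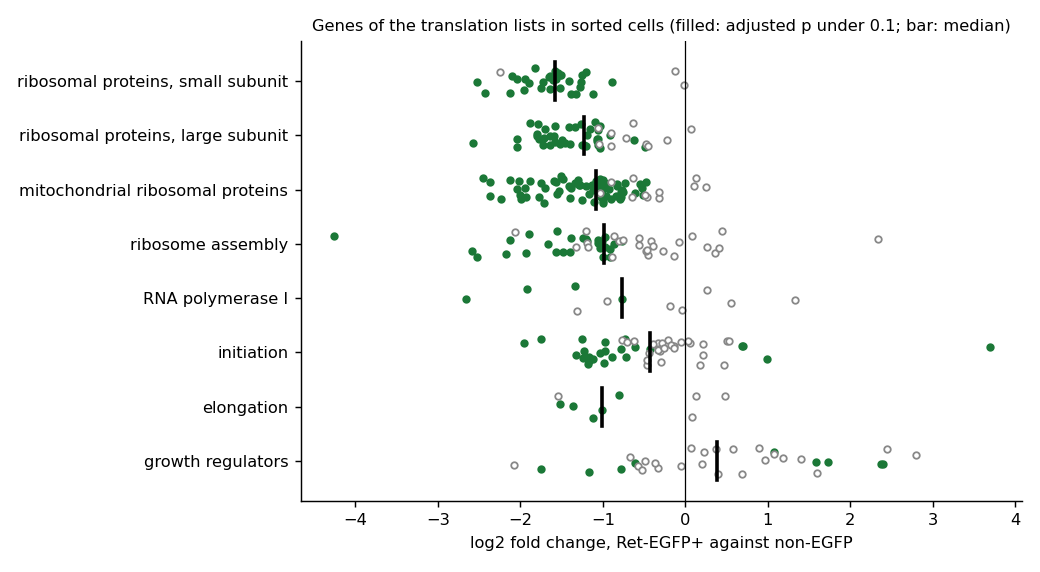
Log2 fold change, Ret-EGFP+ against non-EGFP sorted cells (n = 5 libraries each), of single genes in 8 lists; filled points have an adjusted p under 0.1 in edgeR, open points do not, and bars are medians. The medians run from -1.57 for small subunit ribosomal proteins to 0.39 for growth regulators; on total counts alone every median lies higher, since the median of all genes moves from 0.11 to 0.66.

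Scaling changed the size of these falls. With total counts alone the median of all genes was 0.66, 4695 genes were higher and 1828 lower (main scaling 2940 and 2920), and 56 ribosomal protein genes were lower and 0 higher, with a median of -0.88. Relative to the median of all genes the ribosomal protein genes lay at -1.52 with TMM and -1.54 with total counts.

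In organoids no ribosomal protein gene was called with GDNF. Of the 83 genes tested 0 were called, by edgeR with experiment as a block and by DESeq2 alike, against 80 of 12220 genes (0.655%) in all. At an unadjusted p under 0.05 there were 2 of 83, Rpl10a and Rpl22l1, beside 835 of all 12220 genes, and the smallest adjusted p was 0.614. The median log2 fold change was -0.01, with 36 estimates above and 47 below 0. Precision over libraries was high for most: the median SE was 0.10, and 77 of the 83 95% intervals lay within a 1.5-fold change in either direction. The 2 libraries of a treatment in an experiment came from 1 mouse but were treated as independent. These intervals may thus be too narrow for differences of the GDNF effect between mice. The widest was that of Rpl24, on 78 counts (95% interval -0.78 to 0.77).

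**Figure D5:**
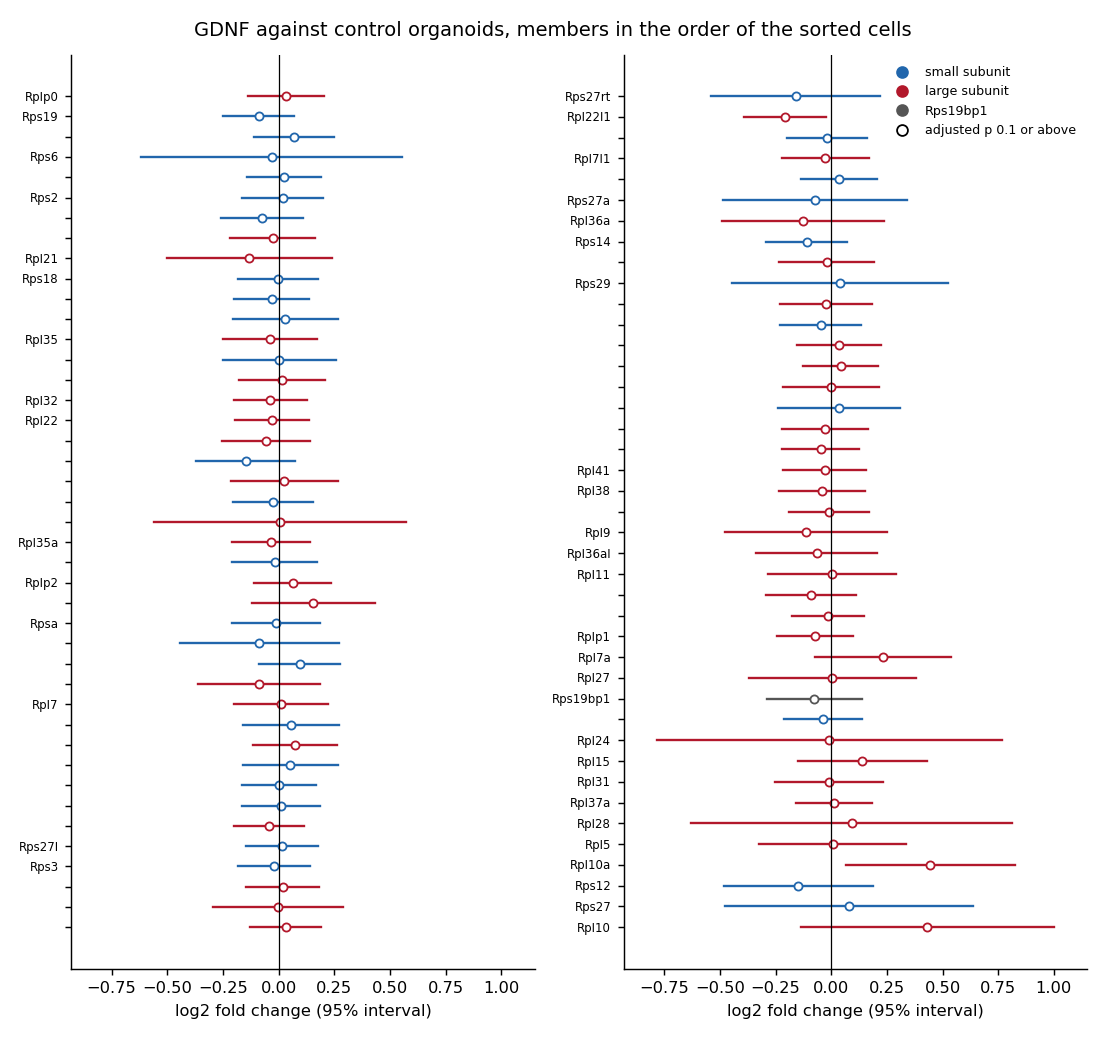
Log2 fold change of the 83 tested ribosomal protein genes, GDNF against control organoids (n = 6 libraries each, experiment as a block), in the order of the sorted-cell differences; points are edgeR estimates and lines 95% intervals, with names for genes described in the text. Every point is open (adjusted p of at least 0.614), and all but Rpl22l1 and Rpl10a have intervals that include 0.

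The 86 genes took 6.37%, 7.08% and 7.68% of counts in control and 6.49%, 7.04% and 7.59% in GDNF libraries (lowest, median and highest). These ranges overlapped nearly in full, with means of 7.02% ± 0.49 and 7.0% ± 0.42 (SD, n = 6 each). Within experiments GDNF minus control was 0.15 percentage points in experiment 1, 0.13 in experiment 2 and -0.34 in experiment 3. The sign of this difference of means varied between experiments, each of 1 mouse. In each experiment the 2 control and 2 GDNF libraries overlapped, so a difference between mice was not shown. Genes higher with GDNF were 45, 55 and 20 of 83 in experiments 1, 2 and 3, and the same count over all genes was not made. A test of the experiment by treatment interaction called 6 of 12220 genes (0.0491%) and none of the ribosomal protein genes. The smallest interaction p among them was 0.00375 for Rps27rt (smallest adjusted p 0.716), and 3 genes lay under 0.05 unadjusted.

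Stalk genes were among the most abundant in organoids. Levels are given here as the lowest, median and highest library of each treatment. Rplp0 had 3358, 4156 and 4642 CPM in control and 3781, 4131 and 4515 CPM in GDNF libraries (log2 fold change 0.03, 95% interval -0.14 to 0.20, adjusted p = 0.978). Values of the treatments covered the same range. Rplp1 had 2686, 3112 and 3295 CPM in control and 2504, 2851 and 3522 CPM in GDNF libraries (log2 fold change -0.07, 95% interval -0.24 to 0.10, adjusted p = 0.952), and Rplp2 had 1539, 1759 and 1884 CPM in control and 1476, 1804 and 2132 CPM in GDNF libraries (log2 fold change 0.06, 95% interval -0.11 to 0.24, adjusted p = 0.957). Neither differed beyond the spread of its libraries. Rps14, again the gene with most counts, had 4321, 5801 and 7438 CPM in control and 4608, 5492 and 6134 CPM in GDNF libraries (log2 fold change -0.11, 95% interval -0.29 to 0.07, adjusted p = 0.905). Rpl32 had 3848, 4548 and 5001 CPM in control and 4197, 4330.2 and 4706 CPM in GDNF libraries (log2 fold change -0.04, 95% interval -0.20 to 0.13, adjusted p = 0.974). Both intervals include 0 and lie within the 1.5-fold bound. Rpsa had 189, 214 and 267 CPM in control and 187, 226 and 248 CPM in GDNF libraries (log2 fold change -0.01, 95% interval -0.21 to 0.19, adjusted p = 1), Rps27a had 13.7, 22.3 and 32.5 CPM in control and 10.8, 21.3 and 28.1 CPM in GDNF libraries (log2 fold change -0.07, 95% interval -0.49 to 0.34, adjusted p = 0.982) and Rps19bp1 had 86.3, 105 and 138 CPM in control and 82.6, 105 and 114 CPM in GDNF libraries (log2 fold change -0.08, 95% interval -0.29 to 0.14, adjusted p = 0.958). All 3 overlapped between treatments.

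The largest estimates in either direction did not pass the test. Rpl10a, a large subunit protein near the site where the tRNA leaves, had 14.4, 19.6 and 26.8 CPM in control and 17.4, 27.8 and 39 CPM in GDNF libraries (log2 fold change 0.45, 95% interval 0.07 to 0.82, adjusted p = 0.614), on 435 counts in all libraries. GDNF libraries were higher on average but overlapped the controls. Rpl22l1 had 441, 532 and 592 CPM in control and 385, 449.9 and 586 CPM in GDNF libraries (log2 fold change -0.21, 95% interval -0.39 to -0.02, adjusted p = 0.642). Its partner Rpl22 did not follow (log2 fold change -0.03), and the log2 ratio of the pair within libraries was -1.07 ± 0.30 with GDNF and -0.90 ± 0.18 in controls (SD, n = 6 each), a difference of -0.17 with p = 0.241 in a two-sided exact permutation test within experiments (216 splits). Rps27l, lower in Ret-EGFP+ cells, had 816, 884 and 953 CPM in control and 859, 881 and 936 CPM in GDNF libraries (log2 fold change 0.01, 95% interval -0.15 to 0.18, adjusted p = 0.996). Of the other lists, 0 of 77 mitochondrial ribosomal proteins, 0 of 51 initiation, 0 of 9 elongation, 0 of 52 assembly and 0 of 11 RNA polymerase I genes were called. Unadjusted p under 0.05 was reached by 6, 1, 0, 0 and 2 of them, beside 835 of all 12220 genes. Proliferation markers were called in 0 of 7 cases, at 758 to 940 CPM in sum in control and 708 to 856 CPM in GDNF libraries, while 3 of 6 goblet, 3 of 6 Paneth and 3 of 5 stem cell markers were higher with GDNF. For none of these goblet, Paneth and stem cell markers did every GDNF library lie above every control library. General enteroendocrine markers were called in 0 of 7 cases (median log2 fold change -0.03, from -0.33 to 0.42), and 2 of 7 had an unadjusted p under 0.05 in edgeR. Their summed level was 550 to 764 CPM (mean 627) in control and 660 to 784 CPM (mean 717) in GDNF libraries, with overlap. The paper reports enrichment of a larger enteroendocrine gene set in GDNF-treated organoids, a measure not used here.

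Set side by side, the comparisons shared no library, and the log2 fold changes of the 83 genes in sorted cells showed little relation to those in organoids (Spearman's rho 0.07, over genes). Organoid libraries gave the ribosomal protein genes a larger share of counts (6.37% to 7.68%) than sorted libraries of either gate (1.27% to 3.78%), but the tables were prepared from different material, and the difference was not tested. Levels of the genes ran in much the same order in control organoids and non-EGFP cells (rho 0.91 over genes), with exceptions such as Rps29, at 105 CPM in non-EGFP cells and 10.9 CPM in control organoids, and Rpl38, at 526 and 146 CPM (chosen after their values were seen).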

How the data were processed

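The authors prepared 3′ libraries with oligo-dT primers that carry a barcode and a molecular identifier of 8 bases, and, per their methods and processing notes, aligned reads with STAR 2.7.8a to GRCm38 and made the deposited tables of whole-number counts per Ensembl gene. The annotation release and the treatment of reads with several positions are not given in the sources used here. Of the sorted values 32 exceeded the 65536 possible identifiers, so counts there are not distinct identifiers per gene; no ribosomal protein gene reached this number. Deposited sample sheets gave gate, plate, pool, treatment and experiment. Libraries were numbered as they stand in the tables, and a TdTomato entry was left out. Libraries of 1 group differed by more than sampling noise in every pair.

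Symbols and biotypes were from GENCODE M21 (30934 of 31053 identifiers matched). The test was the quasi-likelihood test of edgeR 4.0.16 (R 4.3.3) on TMM-scaled libraries, with experiment as a block for organoids. Tested genes had 5 or more counts in all and a mean of 1 or more after normalization, and adjustment was by Benjamini-Hochberg over these, with calls under 0.1. SE was taken from F, as the size of the log2 fold change over the root of F. Precision rests on depth: intervals and floors cover counting error or the spread of libraries only. Alternatives were total counts, DESeq2 1.42.0 and its size factors, TMM without the ribosomal protein genes, filterByExpr, no filter, a threshold of 0.05, terms for plate or pool, no block, sums per experiment and treatment, and each library, plate or experiment left out. Ratios of paralogues, their test within plates, the 5′ TOP list without ribosomal proteins and fits within an experiment were added after seeing the data. Levels in every library are given for the 6 called genes with the smallest adjusted p, the 4 with most CPM, called paralogues with partners, the stalk genes, Rpsa, Rps27a, Rps19bp1 and the largest changes. Some genes that this rule names are not reported here. The genes, lists and this rule were chosen with earlier results of these data known. The submitters' fold changes were not used. Proteins were not compared.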

Additional observations from a re-analysis of the deposited data

Results flagged for a closer look

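In non-EGFP library 5 Rps27a stood at 39.6 CPM, far from the 14.8 to 19.7 CPM of the other 4 non-EGFP libraries. It was the single outlying library among 74 groups of values examined (the share of counts and the genes given by library, in each group), of which chance would single out about 1 in 20. The same library had the highest share of counts in ribosomal protein genes (3.78%) and was the only non-EGFP library of plate 4. The cause was not tested.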

How the results depend on the processing

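In sorted cells the number of ribosomal protein genes called lower stayed between 56 and 72, and none was called higher, under 22 alternatives: scaling, filter, DESeq2, threshold, plate or pool as a term, and each library or plate left out. Leaving out 1 library gave 66 to 72. The median log2 fold change was -1.41 and lay between -1.55 and -1.28 under all of them but total counts alone (-0.88), which raises all genes of Ret-EGFP+ libraries together. The ratio of shares of counts, 1.97, was 2.64 without defensin genes in the total and 1.78 to 2.09 with 1 library left out. Without the 10 most abundant other genes of each library it was 2.01. Of the other values (single genes, and counts in the other lists) 851 stayed on their side of the threshold or within 1.5 times, 17 became weaker and 7 stronger. Of the genes with levels given in every library, Rplp1, Rps19bp1, Rps27a, Rpl36a and Rpl36al lost their call on total counts alone. Without non-EGFP library 5 or plate 4, Rps27a and Rpl36al lost it. The remaining ribosomal protein genes, Rpl37a and Rpl31 among them, were not followed one by one. On total counts alone 56 genes were called in place of 70, so more genes than those listed lost their call.

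In organoids 0 ribosomal protein genes were called under 28 alternatives, and the median log2 fold change lay between -0.09 and 0.02. With no replicate block, that is without experiment in the model, 7 genes in all were called in place of 80, and 0 of the 83. Without experiment 2 there were 35, without experiment 3 46, and without GDNF library 2 of experiment 2 49. Within experiments 1, 2 and 3 alone there were 3, 18 and 74. No paired analysis was possible for the sorted cells because libraries were not tied to mice. Few counts widen the intervals of Rps6, Rpl28 and Rpl10 in sorted cells, and in organoids those of Rpl24, Rpl28, Rps6 and Rpl10.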
